A study of Mus musculus with 2 samples.

Results

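Tek, Tie1, Angpt1, Angpt2 and Ptprb, the genes of the angiopoietin and Tie receptor system, were followed in single cell RNA sequencing of mouse liver sinusoidal endothelial cells (LSECs), the fenestrated cells that line the liver capillaries. The 5 genes were taken by their symbols from the 32285 genes of the count matrices, and each symbol matched 1 row. The series compared the 2 genotypes to find how LSEC subpopulations change when the transcription factor c-Maf (Maf) is lost from these cells. The Maf LSEC-KO library came from mice that carried Clec4g-iCre as 1 transgenic and 1 wild-type allele (tg/wt) together with 2 floxed Maf alleles (fl/fl). The Clec4g promoter drives the Cre recombinase in LSECs. The control library, labelled WT, came from Cre-negative littermates with Maf fl/fl or fl/wt. The study used female and male mice at 3 and 6 months, without naming the sex or age of the animals in these libraries. Each library was made from the pooled livers of 3 mice, by collagenase digestion, a density gradient and magnetic selection for CD146. With 1 library per genotype no difference could be tested, so every interval given is a 95% interval that covers counting error only and says nothing of the spread between mice.

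Angiopoietins are secreted ligands of the receptor tyrosine kinase TIE2, the product of Tek. ANGPT1 is the agonist, usually made by perivascular cells, and it keeps endothelial cells quiescent through AKT, which holds the transcription factor FOXO1 out of the nucleus. ANGPT2 is made by endothelial cells, stored in Weibel-Palade bodies, and can oppose or weakly activate TIE2 depending on the setting. TIE1 binds no angiopoietin by itself and modulates TIE2 as a partner receptor. VE-PTP, the product of Ptprb, is an endothelial receptor phosphatase that removes phosphate from TIE2 and from the VE-cadherin complex. In the adult liver, central vein and sinusoidal endothelial cells differ in the Wnt ligands they make, and Wnt2 and Rspo3 mark the pericentral side.

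In the mm10 (GRCm38) annotation of GENCODE M21, Tek lies on the plus strand of chromosome 4 from 94739289 to 94874976, and Tie1 on the minus strand of the same chromosome from 118471191 to 118490061. Angpt1 lies on the minus strand of chromosome 15 from 42424723 to 42676977, with the antisense gene Gm17473 overlapping its start. Angpt2 lies on the minus strand of chromosome 8 from 18690263 to 18741562, wholly inside the span of Mcph1 on the opposite strand. Ptprb lies on the plus strand of chromosome 10 from 116275523 to 116389535 and contains the snoRNA gene Gm26495 and the unverified gene Gm47625 on its own strand. Promoter sequences from RefSeq (GRCm38.p6) were at hand for 2 of the 5 genes, Tek and Tie1. The 250 bases before the Tek start are shown because Maf is the factor deleted here, and the capitals mark TGCTGAC, a core element bound by Maf proteins.

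Tek, chr4:94739039-94739288, plus strand: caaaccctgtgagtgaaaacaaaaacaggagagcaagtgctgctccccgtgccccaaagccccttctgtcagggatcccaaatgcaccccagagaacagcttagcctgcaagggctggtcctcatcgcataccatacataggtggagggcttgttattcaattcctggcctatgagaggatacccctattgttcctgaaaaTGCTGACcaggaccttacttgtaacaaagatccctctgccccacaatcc

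The match began 49 bases before the start and ended 43 bases before it. Searched on both strands, TGCTGAC was present in 1252 of 32851 RefSeq promoter windows of the same length (3.81%). The Tie1 window held no TGCTGAC. The FOXO motif GTAAACA, found in 3.17% of all windows, was in neither promoter. The ETS motif GGAAGT, found in 19.7% of windows, was in the Tie1 window on the opposite strand, from 82 to 77 bases before the start, and not in the Tek window. GENCODE places the start of Tie1 further upstream than RefSeq, so that 212 of the 250 bases of the Tie1 window, this match included, lie in an annotated exon of Tie1. The 3 motifs do not overlap each other. These matches describe letters only, and binding was not measured in this data set.

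The control library held 5664 barcodes and the Maf LSEC-KO library 7091, with 10 barcode sequences in common. A UMI is a unique molecular identifier, 1 counted transcript, and the study left out cells with Vwf to remove those of large vessels. After the filters, LSECs were taken as cells of endothelial-like clusters that were not called doublets and had no Vwf UMI. This left 4106 control LSECs with a median of 8395 UMIs and 3254 Maf LSEC-KO LSECs with a median of 13870. Levels are counts per 1000000 UMIs (CPM), summed over cells, where the total leaves out mitochondrial genes and those of ribosomal proteins. Maf itself was at 3465 CPM in control and 125 CPM in Maf LSEC-KO LSECs. The endothelial genes Pecam1 (711 and 774 CPM) and Cdh5 (986 and 1061 CPM) were close between the control and Maf LSEC-KO libraries. The LSEC genes Stab2 (1633 and 178 CPM), Clec4g (3012 and 1509 CPM) and Lyve1 (721 and 401 CPM) were lower in Maf LSEC-KO LSECs, but the first was still detected in 52.5% of them and Clec4g in 95.2%. Cells with a Vwf UMI, left out of the LSECs, made up 3.77% of control and 26.6% of Maf LSEC-KO endothelial cells after removal of doublets. They cannot all be read as cells of larger vessels. A Vwf UMI was in 15.8% to 25.4% of the cells of Maf LSEC-KO clusters 1 to 4, which were not led by large vessel markers.

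Tek and Ptprb were both more than 2-fold lower in the Maf LSEC-KO LSECs, though Tek was just short of 2-fold under some other ways of counting, while Tie1 was at nearly the same level in both libraries. Angpt2 was low in both, and Angpt1 was close to absent from LSECs. LSECs held 16.7% of the Angpt1 UMIs of all control cells and 17.9% of those of all Maf LSEC-KO cells, although they were most of the cells.

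Control LSECs held Tek at 553 CPM (545 to 561), and those of the Maf LSEC-KO library held it at 258 CPM (253 to 263). The genotypes (Maf LSEC-KO over control) thus had a log2 ratio of -1.10 (-1.13 to -1.06), or 2.14-fold lower. A Tek UMI was found in 87.2% of control and 80.4% of Maf LSEC-KO LSECs, even though the Maf LSEC-KO cells held more UMIs. After all cells were thinned to 2700 UMIs, and the 406 control and 187 Maf LSEC-KO cells with fewer were dropped, the shares were 66.6% and 41.0%. By summed UMIs Tek ranked 192nd of 18744 detected genes in control LSECs and 636th of 19735 in Maf LSEC-KO LSECs.

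Ptprb stood at 5300.2 CPM (5275 to 5325) in the control cells, against 2072 CPM (2058 to 2086) when Maf was deleted. The log2 ratio was -1.36 (-1.37 to -1.34), or 2.56-fold lower. It was the gene with the 5th most UMIs of the whole control LSEC transcriptome and the 21st in Maf LSEC-KO LSECs. The whole distribution over cells lay lower. The median cell held 5056 CPM in control, with the middle 90% of cells between 2000 and 8657 CPM, and 1952 CPM in Maf LSEC-KO, with the middle 90% between 474 and 4870 CPM. The control median therefore lay above the 95th percentile of the Maf LSEC-KO cells. Because the gene is so abundant it was still detected in 99.8% and 98.3% of cells.

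**Figure D1:**
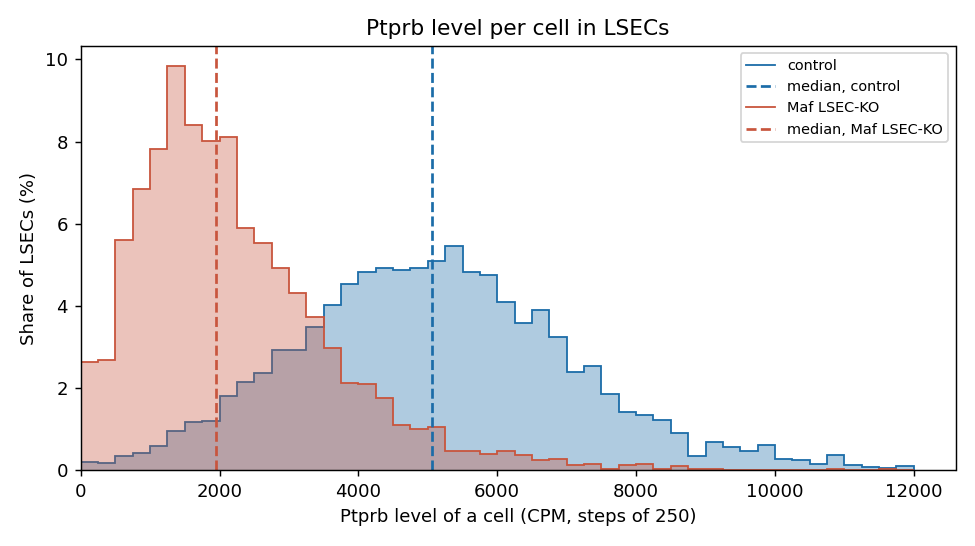
Share of LSECs (y axis, %) at each Ptprb level (x axis, CPM of a single cell in steps of 250) in the control (blue) and Maf LSEC-KO (red) libraries, with dashed lines at the medians of 5056 and 1952 CPM. Each library forms 1 broad peak, the Maf LSEC-KO peak lies to the left, and 0.682% of control and 0.0922% of Maf LSEC-KO cells lie beyond the axis at over 12000 CPM.

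For Tie1 the control level was 368 CPM (362 to 375) and the Maf LSEC-KO level 376 CPM (370.2 to 382), with a log2 ratio of 0.03 (-0.0032 to 0.066). The shares of LSECs with a Tie1 UMI were 84.0% and 89.1%, or 57.2% and 55.2% at equal depth. By UMIs it ranked 352nd of the control genes and 362nd after loss of Maf. The median gene with at least 10 CPM in either library had a log2 ratio of 0.14. Under scalings that set such a shift to about 0, Tie1 came out slightly lower in Maf LSEC-KO cells, at -0.12 by the trimmed mean of M values (TMM) and -0.13 by the median of ratios, so that its sign depended on the scaling. Tek and Ptprb were lower under each of them.

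Angpt2 gave 559 UMIs, or 17.0 CPM (15.6 to 18.5), in control and 836 UMIs, or 20.8 CPM (19.4 to 22.3), in Maf LSEC-KO LSECs. The log2 ratio of 0.29 (0.14 to 0.45) rested on the clusters that were counted. It was -0.020 when endothelial-like clusters with hepatocyte, erythroid, platelet or stellate cell markers among their leading genes were left out, and 0.84 after thinning. The shares of LSECs with an Angpt2 UMI were 9.86% and 16.4%, or 3.19% and 4.70% at equal depth. Most of the 405 control and 533 Maf LSEC-KO cells with Angpt2 held 1 UMI. There were 2 or more UMIs in 100 and 159 cells, 5 or more in 7 and 15, and at most 8 and 21 in a single cell. The 41 control and 33 Maf LSEC-KO cells with the most Angpt2 UMIs held 24.3% and 22.2% of them. The overlapping Mcph1 gene lies on the opposite strand, and 10x 3′ libraries keep the strand of a transcript.

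Angpt1 gave 4 UMIs in 4 of 4106 control LSECs (0.122 CPM, 0.0331 to 0.311) and 19 UMIs in 14 of 3254 Maf LSEC-KO LSECs (0.473 CPM, 0.284 to 0.738). Of the 19 UMIs, 11 were in LSECs that also held UMIs of 2 or more platelet markers. Without such cells, 4 control and 8 Maf LSEC-KO UMIs remained. Angpt4, the remaining angiopoietin, had 0 UMIs in control LSECs, which allows up to 0.0912 CPM (3 counts), and 1 UMI in Maf LSEC-KO LSECs.

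Of the 5 genes, the 4 with at least 10 CPM in either library included 2 that were 2-fold or more lower in Maf LSEC-KO LSECs (Tek and Ptprb) and 0 that were 2-fold or more higher. Over all 9313 genes at this level, 421 (4.52%) were 2-fold or more lower and 976 (10.5%) were 2-fold or more higher. Ptprb was past 2-fold under every alternative run. Tek was short of it as a mean over cells of CPM (log2 ratio -0.997), with Vwf-positive cells kept (-0.99) and after thinning (-0.95). It was also short after subtraction of the level in neutrophil or monocyte-like cells (-0.88), the only leukocytes for which this was run. With 4 genes that had been chosen as a pathway, this is a description of those genes and not a test.

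**Figure D2:**
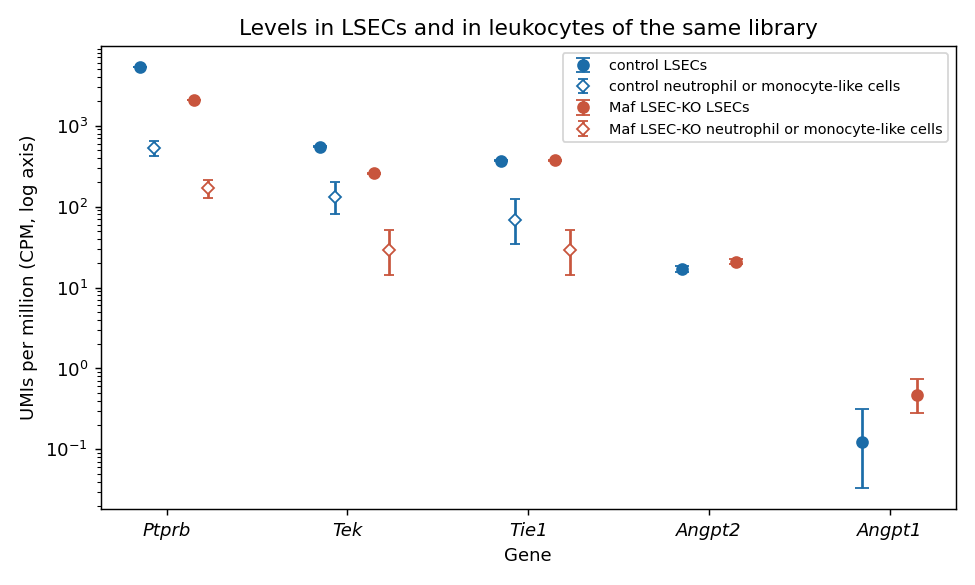
Level of each of the 5 genes (y axis, CPM on a log axis) in LSECs (filled circles) and in neutrophil or monocyte-like cells of the same library (open diamonds), control in blue and Maf LSEC-KO in red, with bars for the 95% Poisson interval. Ptprb and Tek are lower in red than in blue, Tie1 and Angpt2 lie close together, and diamonds are missing for Angpt2 and Angpt1 because neither had a UMI in those leukocytes.

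RNA released from broken cells enters every droplet, so levels in leukocytes of the same library were taken as the background. Neutrophil or monocyte-like cells (40 in control with a median of 3863 UMIs, 86 in Maf LSEC-KO with a median of 4310) held Ptprb at 530 and 168 CPM, Tek at 131 and 28.9 CPM and Tie1 at 68.5 and 28.9 CPM. These were 9.99% and 8.12% of the LSEC level for Ptprb, 23.7% and 11.2% for Tek, and 18.6% and 7.69% for Tie1. A Tek UMI was present in 17.5% of these control leukocytes and 9.30% of those of the Maf LSEC-KO library, against 87.2% and 80.4% of LSECs. Angpt2 and Angpt1 had 0 UMIs in them, which allows up to 18.7 CPM in control and 7.88 CPM in Maf LSEC-KO (3 counts). The control limit is above the 17.0 CPM of Angpt2 in control LSECs, so this 0 does not show a lack of Angpt2 background. Macrophage-like cells (218 in control, 387 in Maf LSEC-KO) held Angpt2 at 11.9 CPM (18 UMIs) and 4.81 CPM (11 UMIs). These were 70.3% and 23.1% of the LSEC level. Levels of Angpt2 under 11.9 CPM in sets of control cells therefore cannot be told from background. After subtraction of these neutrophil or monocyte-like levels the genotypes had log2 ratios of -0.88 for Tek, -1.33 for Ptprb and 0.21 for Tie1. The control Tek level rested on 21 UMIs in 7 cells, and subtraction of the levels of other leukocytes was not run. Other leukocytes varied. T/NK cell-like cells held Tek at 12.4% of the LSEC level in control and 9.26% in Maf LSEC-KO, and Ptprb at 17.0% and 12.7%. The 47 control B cell-like cells held Tek at 79.6% and Ptprb at 65.7%, while those of Maf LSEC-KO held them at 27.5% and 17.4%.

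The balance between the receptors differed between the libraries. UMIs are counted once per transcript at its 3′ end and do not scale with length, but genes can differ in capture, so the ratio of 2 genes is set only against the same ratio in the other library. For each Tek UMI, control LSECs held 0.665 Tie1 UMIs (0.650 to 0.681) and Maf LSEC-KO LSECs 1.46 (1.42 to 1.49). More Tie1 than Tek UMIs were found in 25.9% of control and 58.2% of Maf LSEC-KO LSECs, and more Tek than Tie1 in 57.0% and 24.1%. After thinning, cells with more Tie1 made up 27.7% and 38.2%, and cells with more Tek 43.4% and 21.9%. Ptprb UMIs per Tek UMI were closer, with 9.58 (9.43 to 9.73) before and 8.02 (7.86 to 8.19) after loss of Maf, though the intervals did not overlap.

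Some LSECs of the Maf LSEC-KO library still held Maf message. In the 213 cells with at least 5 Maf UMIs, Ptprb was at 3789 CPM (3709 to 3870.0) against 1956 CPM (1940.0 to 1972) in the 2559 cells with none, a log2 ratio of 0.95 (0.92 to 0.99). Tek was at 368 CPM (343 to 394) against 253 CPM (248 to 259), a log2 ratio of 0.54 (0.43 to 0.64). Tie1 differed less, at 405 against 376 CPM (log2 ratio 0.11, 0.01 to 0.20). Angpt2 was at 39.3 CPM, from 89 UMIs, against 20.1 CPM (log2 ratio 0.97, 0.63 to 1.29). In all 4 genes the cells with Maf were therefore higher than those without, though narrowly for Tie1.

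The Maf-positive cells did not reach the control level of Tek and Ptprb. Against all control LSECs their log2 ratio was -0.59 (-0.69 to -0.49) for Tek and -0.48 (-0.52 to -0.45) for Ptprb. The cells with 0 Maf UMIs were at -1.13 and -1.44. Angpt2 in the Maf-positive cells was above control, at a log2 ratio of 1.21 (0.87 to 1.54). The 482 cells with 1 to 4 Maf UMIs were close to the cells with none, at log2 ratios of -0.05 for Tek, -0.02 for Tie1, -0.14 for Angpt2 and 0.05 for Ptprb. Tie1 per Tek UMI was 1.10 (1.0 to 1.21) in the Maf-positive cells and 1.48 in cells with 0 Maf UMIs.

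Other features moved with Maf in these cells. Macrophages also contain Maf, and UMIs of 2 or more macrophage markers were found in 17.8% of the Maf-positive cells and 15.01% of those with none. The summed level of these markers was higher in the Maf-positive cells, at 221 against 67.2 CPM. Without cells with 2 or more of the markers, it was 47.4 against 38.4 CPM. In the same cells Ptprb was at 3928 against 1978 CPM, Tek at 376 against 253 CPM, and Angpt2 at 28.1 against 20.4 CPM. Mki67, the marker of cycling cells, had a UMI in 7.04% of Maf-positive cells and 23.6% of those with none. Among cells without an Mki67 UMI, Ptprb was at 4023 against 2153 CPM and Tek at 391 against 272 CPM. Angpt2 was at 42.2 against 21.7 CPM in these cells, while Tie1 no longer differed, at 396.4 against 395.7 CPM. The Maf-positive cells were the shallower ones, with a median of 10164 against 13598 UMIs.

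Clusters were made within each library after the 5 genes had been removed from the genes used to build them, and 7 control and 9 Maf LSEC-KO clusters were endothelial-like. The levels given for clusters are of their cells without doublets and Vwf UMIs. Ptprb was between 3854 and 5845 CPM in the control clusters, and between 1193 and 4641 CPM in the Maf LSEC-KO clusters. Tek was between 413 and 731 CPM in control and between 159 and 430.4 CPM in Maf LSEC-KO clusters. Tie1 spanned 298 to 434 CPM in control and 316 to 444 CPM in Maf LSEC-KO clusters. From the lowest to the highest cluster Tie1 differed by 1.45-fold in control and 1.41-fold in Maf LSEC-KO, Tek by 1.77-fold and 2.71-fold, and Ptprb by 1.52-fold and 3.89-fold.

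A single Maf LSEC-KO cluster stood above the others in both Tek and Ptprb. It was cluster 7, of 198 cells, led by Dnase1l3, Maf and Fcgr2b, and it held Maf at 2334 CPM where cluster 8 held 270.2 CPM and the others between 2.65 and 59.0 CPM. Its Ptprb of 4641 CPM lay within the control range, and its Tek of 430.4 CPM above the lowest control cluster. Next came cluster 6, led by Gja5 and Npr3, genes of arterial endothelium and of natriuretic peptide clearance, with Ptprb at 2965 and Tek at 377 CPM. Its Maf level was 26.6 CPM. The cycling cluster 4 had Ptprb at 1278 and Tek at 184 CPM, and the S phase cluster 3, led by replication genes such as Mcm5 and Ung, had 1536 and 219 CPM.

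In the control library Tek was highest in cluster 4, at 731 CPM. This cluster was led by Dcn, Rspo3 and Wnt9b and held 4 pericentral, 3 large vessel and 5 stellate or mesenchymal markers among its leading genes. Before cells with a Vwf UMI were left out they were 11.7% of this cluster. It also had the lowest Angpt2 of the control clusters, at 3.07 CPM, which was below the 11.9 CPM of control macrophage-like cells. Cluster 7, led by Igfbp5 and Nrg1, had the highest Ptprb, at 5845 CPM, and the highest Tie1, at 434 CPM. The control cycling cluster 8 had the lowest Ptprb, at 3854 CPM. Angpt2 was highest in cluster 2, at 27.5 CPM, which was led by the interferon-induced genes Cxcl10 and Cxcl9 and by Esm1. In the Maf LSEC-KO library Angpt2 was highest in the Maf-positive cluster 7, at 40.3 CPM, and cluster 13, led by Sparcl1, Igfbp3 and Cxcl12, had 37.1 CPM with an interval that overlapped it. Clusters 3 and 5 of control and cluster 11 of Maf LSEC-KO had the shallowest cells, with medians of 3314, 3080 and 3804 UMIs, and held hepatocyte, erythroid or platelet genes among their leading genes.

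**Figure D3:**
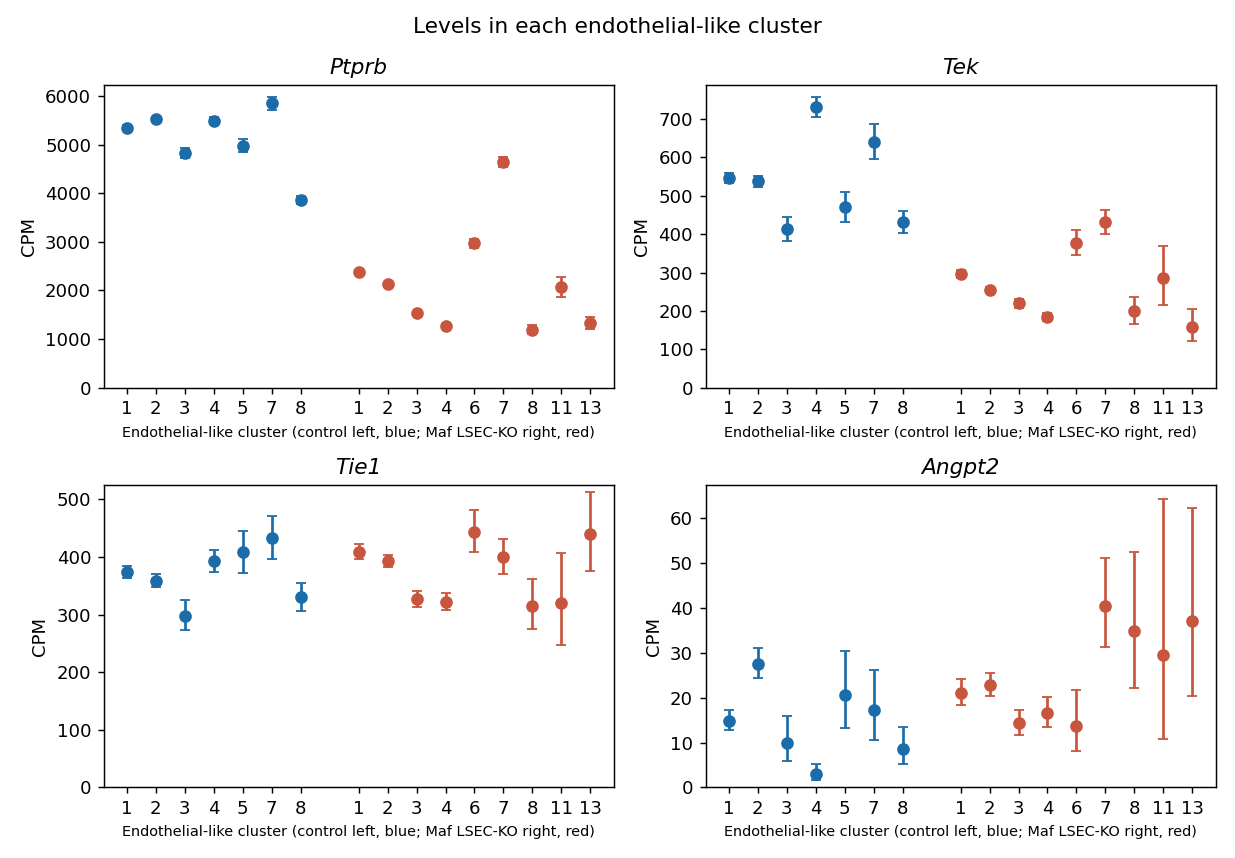
Level of Ptprb, Tek, Tie1 and Angpt2 (y axes, CPM, from 0) in each endothelial-like cluster (x axes, cluster number within its library), control in blue on the left and Maf LSEC-KO in red on the right, with 95% Poisson intervals. Ptprb and Tek separate the libraries except at Maf LSEC-KO cluster 7, while the Tie1 points of both libraries share 1 range from 298 to 444 CPM.

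Across the 16 endothelial-like clusters the log2 levels of Tek and Ptprb had a Pearson r of 0.96, and r was 0.73 over the 7 control and 0.97 over the 9 Maf LSEC-KO clusters. Tek and Tie1 had an r of 0.08 over the 16, but 0.69 over the control and 0.21 over the Maf LSEC-KO clusters. Tie1 and Ptprb had an r of 0.03 over the 16, and 0.53 and 0.34 within the libraries. The difference between the libraries is part of each value over the 16 clusters. Clusters of a library share its free RNA, its depth and its animals, so these are descriptions without a test. Over 23 clusters of at least 50 cells of any cell type, and 10723 genes, the gene most like Tek was Ptprb (r = 0.99), followed by Ccdc80 and Tgfbr3 (both 0.97), Npr1 (0.97) and Cemip2 (0.96). The genes most like Ptprb were Tek (0.99), Npr1, Tgfbr3, Calcrl and Il6st (all 0.98), of which Tgfbr3 encodes betaglycan, a TGF-beta co-receptor, and Calcrl the adrenomedullin receptor. For Tie1 they included She, Dab2ip, 4931406P16Rik and Arhgap29 (all 0.97), and its r with Tek was 0.85. For Angpt2 the likeness was weaker, with Galnt15 (0.83), Tnks2 (0.83), Tcf4 (0.81) and Spred2 (0.80) among the most alike. These values include the contrast of endothelial with other cells.

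Cycling LSECs held Tek and Ptprb at lower CPM, a share of UMIs, in both libraries. An Mki67 UMI was found in 104 control LSECs and 745 Maf LSEC-KO LSECs. In control, Ptprb was at 3669 CPM (3569 to 3771) in cells with and 5372 CPM (5347 to 5398) in cells without an Mki67 UMI, a log2 ratio of -0.55 (-0.59 to -0.51). In Maf LSEC-KO it was at 1590.2 CPM (1569 to 1612) against 2302 CPM (2284 to 2320.2), a log2 ratio of -0.53 (-0.56 to -0.51). Tek was at 397 against 560.2 CPM in control (log2 ratio -0.50, -0.62 to -0.37) and at 215 against 279 CPM in Maf LSEC-KO (log2 ratio -0.37, -0.44 to -0.31). The intervals of the 2 libraries overlapped for both genes.

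Tie1 and Angpt2 showed another picture. Tie1 was at 370.2 against 368 CPM in control (log2 ratio 0.01, -0.12 to 0.14) and at 337 against 395 CPM in Maf LSEC-KO (log2 ratio -0.23, -0.28 to -0.18). Angpt2 was at 4.30 CPM, from 6 UMIs, against 17.5 CPM in control (log2 ratio -2.03, -3.48 to -0.90) and at 16.6 against 22.8 CPM in Maf LSEC-KO (log2 ratio -0.46, -0.69 to -0.23). Cells with an Mki67 UMI were deeper, with medians of 14319 against 8305 UMIs in control and 19669 against 12642 in Maf LSEC-KO. A Tek UMI was in 91.3% against 87.1% of control cells and 84.3% against 79.2% of Maf LSEC-KO cells. After thinning the shares were 54.9% against 67.0% and 35.9% against 42.5%. The lower CPM of Tek and Ptprb thus does not mean fewer of their UMIs per cycling cell. Cycling cells were 22.9% of the Maf LSEC-KO LSECs against 2.53% of control. With all cells that had an Mki67 UMI left out, the log2 ratio of the genotypes was -1.01 for Tek and -1.22 for Ptprb.

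**Figure D4:**
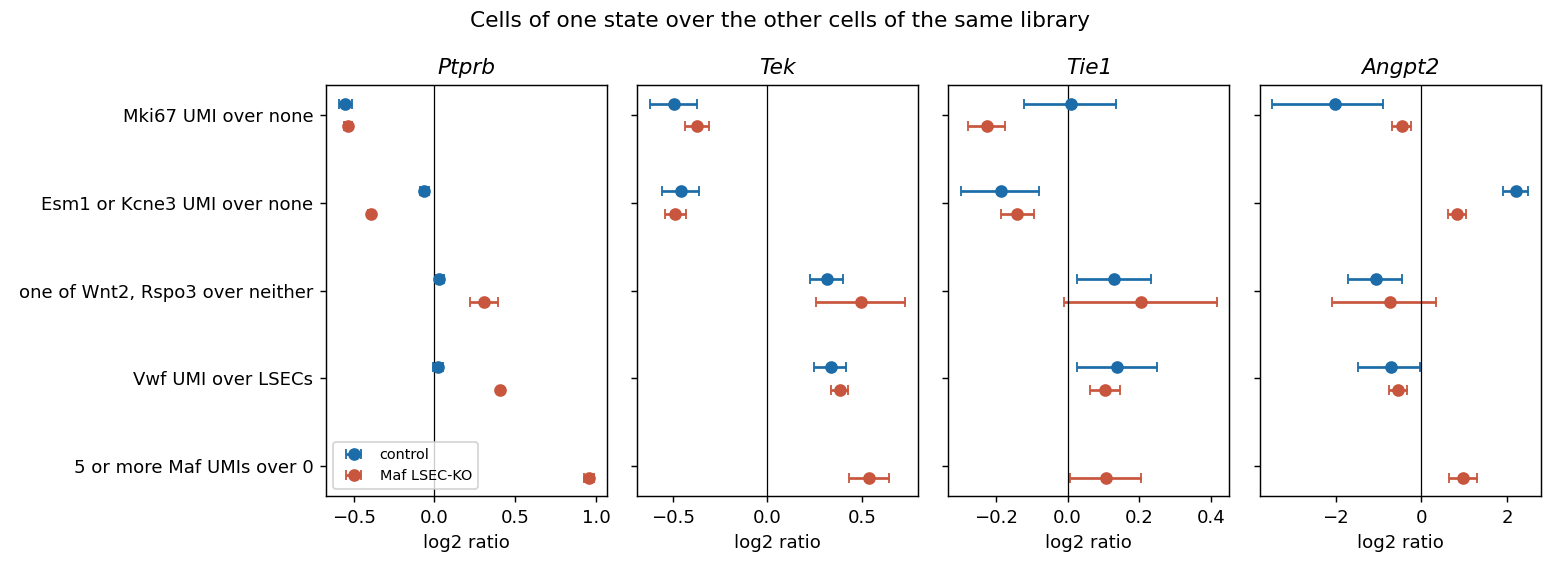
Log2 ratio (x axes, which differ in range between panels) of the level in cells of a given state over comparison cells of the same library, for Ptprb, Tek, Tie1 and Angpt2, control in blue and Maf LSEC-KO in red, with 95% intervals for counting error. The states are an Mki67 UMI and an Esm1 or Kcne3 UMI (against LSECs without), 1 of Wnt2 and Rspo3 (against LSECs with neither), a Vwf UMI (against LSECs) and at least 5 Maf UMIs (against LSECs with 0). Tek and Ptprb lie below 0 for Mki67 in both libraries, and Angpt2 is at 2.20 and 0.84 for Esm1 or Kcne3.

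Along the zonal axis, Tek was highest in cells with both pericentral markers, which need not all be sinusoidal. In control, Rspo3 had a UMI in 44.0% of the cells of cluster 4, against 2.34% to 7.07% in clusters 1 to 3. Large vessel and stellate markers were also among the leading genes of cluster 4. After thinning, 153 control LSECs had UMIs of both Wnt2 and Rspo3, 1363 of only 1 of them and 2184 of neither. Tek was at 833 CPM (742 to 932), 589 CPM (563 to 616) and 474 CPM (455 to 493) in these 3 classes, a log2 ratio of 0.81 (0.64 to 0.99) between the first and the last. Tie1 was at 470.1, 392 and 359 CPM (log2 ratio 0.39, 0.16 to 0.62). Ptprb was at 6016, 5201 and 5099.9 CPM (log2 ratio 0.24, 0.17 to 0.30). All 3 genes thus stood in the order both, 1 and neither, with Tek the widest, though the Ptprb intervals of the last 2 classes overlapped. The periportal markers did not set a periportal side apart, since 2955 of the 3700 thinned control LSECs had 2 or more and 144 had none. Cells with none against those with 2 or more had log2 ratios of 0.041 for Tek, -0.12 for Tie1 and -0.21 for Ptprb. These values cannot show or deny a mirror image on the periportal side.

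Angpt2 ran in the other direction in control LSECs. It was at 5.50 CPM (2 UMIs), 8.98 CPM (29 UMIs) and 18.7 CPM (96 UMIs), with a log2 ratio of -1.05 (-1.71 to -0.44) between cells with 1 marker and cells with neither. For cells with both the interval was wide (-4.83 to 0.13). The levels of cells with both and with 1 marker lay below the 11.9 CPM of control macrophage-like cells. Cells with both markers were somewhat deeper before thinning, with a median of 9779 against 8779 UMIs.

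In Maf LSEC-KO LSECs the pericentral markers themselves were scarce. Only 13 cells had UMIs of both Wnt2 and Rspo3 after thinning, 204 of 1 and 2850 of neither. Tek was at 376 CPM (320.4 to 438) in cells with 1 marker and 266 CPM (253 to 279.7) in cells with neither, a log2 ratio of 0.50 (0.26 to 0.73). Ptprb was at 2747 CPM (2593 to 2907) against 2222 CPM (2185 to 2261), a log2 ratio of 0.31 (0.22 to 0.39). For Tie1 (454 against 393 CPM, log2 ratio 0.21, -0.01 to 0.42) and Angpt2 (7 UMIs in cells with 1 marker) the intervals included 0. In the 13 cells with both, Tek rested on 16 UMIs and Ptprb on 125. Without thinning the log2 ratio of Ptprb between cells with both and neither was 0.092 in place of 1.04. Cells with no periportal marker against those with 2 or more had log2 ratios of -0.52 for Tek, -0.28 for Tie1 and -0.72 for Ptprb. Here too most of the thinned cells, 1869 of 3067, had 2 or more, so this split does not mark a periportal side.

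Angpt2 is a known gene of angiogenic tip cells, and it was higher in LSECs with a UMI of the tip cell genes Esm1 or Kcne3. There were 190 such cells in control and 1305 in Maf LSEC-KO. In control, Angpt2 was at 62.9 CPM (52.9 to 74.2) in them and 13.7 CPM (12.4 to 15.03) in the rest, a log2 ratio of 2.20 (1.92 to 2.48), or 4.60-fold. In Maf LSEC-KO it was at 26.5 CPM (24.3 to 28.8) against 14.8 CPM (13.1 to 16.6), a log2 ratio of 0.84 (0.63 to 1.05), or 1.79-fold. The rest of the cells were thus at nearly the same Angpt2 level in both libraries, and the intervals of the 2 ratios did not overlap. After thinning, an Angpt2 UMI was found in 9.78% against 2.84% of control cells and in 6.46% against 3.42% of Maf LSEC-KO cells.

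Esm1 alone was detected in 3.17% of control and 31.9% of Maf LSEC-KO LSECs, and these cells held 21.1% and 56.8% of the Angpt2 UMIs of LSECs. Tek was lower in the cells with Esm1 or Kcne3, at 410.4 against 564 CPM in control (log2 ratio -0.46) and 216 against 303 CPM in Maf LSEC-KO (-0.49). Ptprb was at 5086 against 5316 CPM in control (-0.06) and 1797 against 2361 CPM in Maf LSEC-KO (-0.39). Tie1 had log2 ratios of -0.19 and -0.14. Cells with Esm1 or Kcne3 were deeper, with medians of 12241 against 8231 UMIs in control and 17691 against 11530 in Maf LSEC-KO.

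Endothelial cells with a Vwf UMI held more Tek than the LSECs, defined here as those without one. In control such cells were 28.5% of cluster 7, 11.7% of cluster 4 and at most 1.46% of any other endothelial-like cluster. In Maf LSEC-KO they were 75.9% of cluster 8, 70.1% of cluster 6 and 15.8% to 25.4% of clusters 1 to 4. The Vwf-positive cells of the 2 libraries are therefore not a like set. Tek was at 697 against 553 CPM in control (log2 ratio 0.33, 0.25 to 0.42) and at 336 against 258 CPM in Maf LSEC-KO (0.38, 0.34 to 0.43). Ptprb was at 5377 against 5300.2 CPM in control (0.02, -0.01 to 0.05) and at 2748 against 2072 CPM in Maf LSEC-KO (0.41, 0.39 to 0.42). Tie1 was at 405 and 404 CPM in the Vwf-positive cells of the 2 libraries. Angpt2 was lower in them, at 10.4 against 17.0 CPM and 14.3 against 20.8 CPM. With Vwf-positive cells counted, the log2 ratio between the libraries was -0.99 for Tek and -1.22 for Ptprb.

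Outside the endothelial-like clusters, Angpt1 was concentrated in a few cells with hepatocyte and cholangiocyte markers. Of all cells without doublets, 24 UMIs of Angpt1 were found in control and 106 in Maf LSEC-KO. A cluster of 37 Maf LSEC-KO cells led by Spp1, Tm4sf4, Krt8 and Krt18, with Epcam and Sox9, genes of bile duct cells, among the next, held 65 of these UMIs at 124 CPM (95.8 to 158). It was left unnamed because it also held hepatocyte markers. The control cluster with the same leading genes, of 135 cells, held 16 UMIs at 12.4 CPM (7.08 to 20.1), and Ptprb at 4907 CPM, near the LSEC level. It had Pecam1 in 80.3% of its cells and all 14 endothelial genes in 50% or more, and was left out through Arg1. Its Angpt1 level is thus not that of a purely non-endothelial cell type. Cells with UMIs of 2 or more cholangiocyte markers, 10 in control and 61 in Maf LSEC-KO, held 66.7% and 61.3% of all Angpt1 UMIs.

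The other Angpt1 message was in cells with platelet or stellate cell markers. Cells with 2 or more platelet markers held 0 of the 24 control UMIs and 24 of the 106 Maf LSEC-KO UMIs, the latter in 13 of 213 cells. Cells with 2 or more stellate genes and fewer than 2 cholangiocyte markers held 4 control and 16 Maf LSEC-KO UMIs, at 4.83 CPM (1.32 to 12.4) and 11.9 CPM (6.82 to 19.4). Cells with none of these 3 sets of markers held 4 and 9 UMIs. Magnetic selection for CD146 and the filters set how many of these cells were present, so the counts say where the message lay in these libraries and not how much of it a liver holds.

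The other genes of the pathway were counted in the same LSECs from fixed lists, with 2-fold as the limit and the 10.5% higher and 4.52% lower of all genes as the background. Of 8 ligands and binders 5 were at 10 CPM or more. Itgb3, the beta 3 integrin subunit, was higher in Maf LSEC-KO (22.2 to 48.9 CPM, log2 ratio 1.14), and its partner Itgav was just inside the limit on the other side (26.3 to 13.3 CPM, -0.98). The integrins Itga5 (0.11) and Itgb1 (0.03), which bind angiopoietins, were close to 0. Svep1, which encodes a secreted ligand of TIE1, had 4 and 16 UMIs.

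Of 22 genes of TIE2 signalling 17 were measured, and their median log2 ratio was 0.12 against 0.14 for all genes. Only Pik3r1, the regulatory subunit of PI3-kinase, passed 2-fold, at 147 CPM in control and 60.7 CPM in Maf LSEC-KO (log2 ratio -1.28, -1.35 to -1.21). The catalytic subunit Pik3cb was at 7.08 and 12.5 CPM (0.82) and passed the limit of 10 CPM in Maf LSEC-KO alone. Crk was at 212 and 165 CPM (-0.36) and Mapk3 at 163 and 205 CPM (0.32). Akt1 had a log2 ratio of 0.12, Foxo1 of 0.07 (138 and 145 CPM) and Nos3, endothelial nitric oxide synthase, of 0.32 (95.8 and 120 CPM).

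All 9 partners of VE-PTP and of the adherens junction were measured, with a median log2 ratio of 0.10. Cdh5, which encodes VE-cadherin, had a log2 ratio of 0.10 beside the -1.36 of Ptprb. Rap1a, a small GTPase that strengthens junctions, was at 260 CPM in control and 532 CPM in Maf LSEC-KO (1.03), and Rap1b was at 301 and 282 CPM. Plekhg5 was at 18.0 and 27.5 CPM (0.61), and Ctnnd1 and Jup, which encode p120-catenin and plakoglobin, both had a log2 ratio of -0.36.

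Of 14 target genes of FOXO1, 12 were measured, 2 were 2-fold or more higher and 1 lower, with a median log2 ratio of 0.27. Pik3ip1, an inhibitor of PI3-kinase, was at 1.73 and 12.3 CPM (2.83) and Sesn3, a stress-induced sestrin, at 8.87 and 23.2 CPM (1.38), and both reached 10 CPM in Maf LSEC-KO alone. Spry2, an inhibitor of receptor tyrosine kinase signalling, was at 28.0 and 12.8 CPM (-1.13), and Txnip at 1236 and 712 CPM (-0.79). Genes of the list thus lay on both sides of the background median.

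Of 11 genes of the Weibel-Palade body, the store of ANGPT2, 8 were measured with a median log2 ratio of -0.36. Cd63, a membrane protein of these granules and of lysosomes, was at 30.1 CPM in control and 169 CPM in Maf LSEC-KO (2.48, 2.39 to 2.58). Unc13d was at 13.4 and 15.9 CPM (0.25). Stxbp5, which acts on exocytosis, was lower (54.8 and 27.2 CPM, -1.01). Vwf, the main cargo of the granules, was used to leave cells out and is not counted.

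Of the 3 sheddases that cut TIE receptors from the surface, Mmp14 was at 195 CPM in control and 67.3 CPM in Maf LSEC-KO (-1.54, -1.60 to -1.47). Adam10 (0.15) and Adam17 (0.19) stayed near the background median. None of the 7 angiopoietin-like genes reached 10 CPM.

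The other receptors of the class of Tek were spread widely. Of 19 endothelial receptor tyrosine kinases 13 were measured, 5 were 2-fold or more lower and 0 higher, and the median log2 ratio was -0.36. Kit was at 367 and 68.8 CPM (-2.41), Mertk, a receptor for the clearance of dead cells, at 346 and 81.0 CPM (-2.10), Fgfr1 at 20.7 and 5.20 CPM (-1.99), Fgfr3 at 10.7 and 4.87 CPM (-1.13) and Flt4, which encodes VEGFR3, at 744 and 343 CPM (-1.12). Fgfr1 and Fgfr3 reached 10 CPM in control alone. Without the filter 2 of the 19 were higher (Met and Ddr1) and 5 lower, against 25.4% and 12.2% of all genes. Ddr1 was just under the filter, at 1.15 and 8.93 CPM (2.95). The log2 ratio of Tek, -1.10, was close to that of Flt4. Kdr, which encodes VEGFR2, was at 3413 and 2651 CPM (-0.36). Epha2 had the highest ratio of the 13 measured, at 15.1 and 28.7 CPM (0.93), followed by Axl (0.19).

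Of 13 other receptor type tyrosine phosphatases 5 were at 10 CPM or more, 1 was 2-fold or more higher and 0 lower. Ptpre was at 46.3 and 98.4 CPM (1.09) and Ptprm at 60.4 and 78.4 CPM (0.37). Ptprk was at 56.7 and 47.1 CPM (-0.27) and Ptpra at 205 and 194 CPM (-0.08). The ratio of Ptprb, -1.36, thus lay below all 5 of them. Without the filter 5 of the 13 were higher and 1, Ptpru, was lower (7.72 and 1.67 CPM, -2.21). With 1 library per genotype this holds for these 2 libraries.

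**Figure D5:**
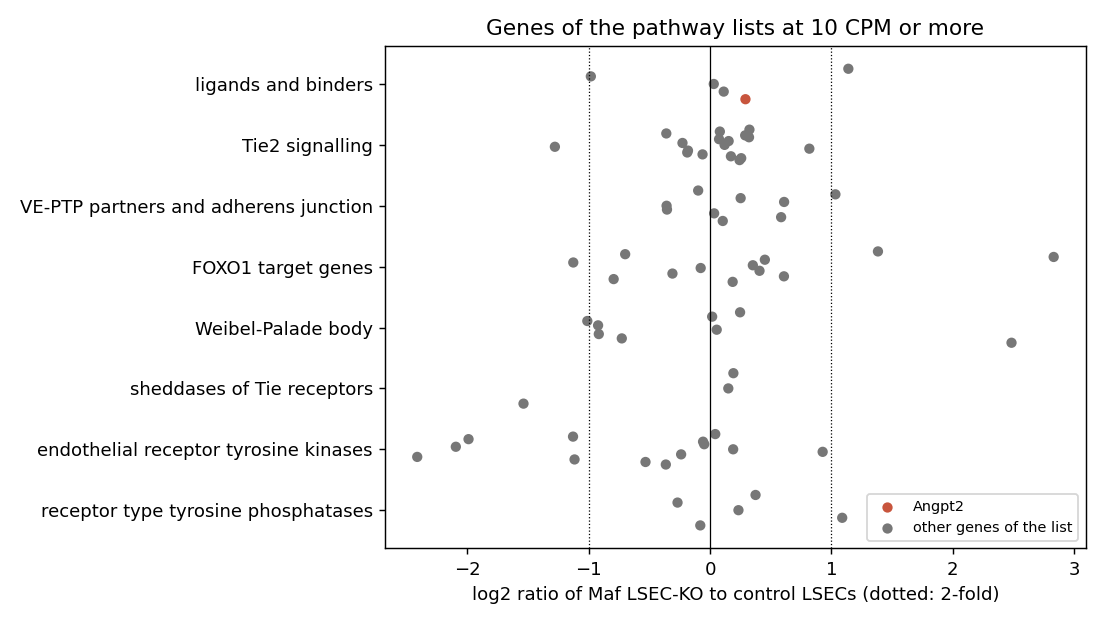
Log2 ratio between the genotypes, Maf LSEC-KO over control LSECs (x axis, dotted lines at 2-fold) for each gene with at least 10 CPM in either library, by list (y axis), with Angpt2 in red. The receptor tyrosine kinases reach furthest to the left (Kit, -2.41), and the TIE2 signalling genes lie between -0.36 and 0.82 except Pik3r1 at -1.28.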

How the data were processed

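The authors' deposited files hold whole-number UMI counts per gene and barcode of 2 10x 3′ libraries, made per the labels and the study's methods with Cell Ranger 6.0.2 on mm10, and the authors' analysis used Seurat 5.0.1. No barcode was under 500 UMIs. The deposited counts were used here, without the authors' subtraction of empty droplets. The study's limits of 1500 UMIs and 750 genes kept 4961 control and 5423 Maf LSEC-KO barcodes, which were clustered per library in Seurat 5.3.0 (2000 variable genes without the 5 genes, 16 and 20 principal components, resolution 0.3). Endothelial-like clusters had Pecam1, and 7 or more out of 14 endothelial genes, in 50% of their cells or more, and Adgre1, Clec4f, Ptprc, Cd52, Acta1 and Arg1 each in at most 50%. Scrublet (scanpy 1.11.5) set no limit that marked a cell, so its highest scores up to the expected rate were removed (225 and 308 cells). LSEC totals were 37453496 and 52188156 UMIs, with 1512 to 53852 and 1506 to 103948 per cell. Intervals are exact Poisson or, for ratios, exact conditional binomial. The interval code was tested on simulated data. edgeR 4.0.16 served only for TMM scaling. The genes named are the 5 members, the 2 highest and 2 lowest of each list, defining pathway genes, genes past 2-fold, and the 5 most alike by Pearson r of log2(CPM + 5), except a few genes that are not reported here. Members and lists were chosen with earlier results of these data known.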

Additional observations from a re-analysis of the deposited data

Results flagged for a closer look

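Angpt1 was above its LSEC level in 4 clusters that the LSEC comparisons left out, with the lower bound of the interval over the upper bound of LSECs of the same library. It was at 12.4 CPM in control cluster 9 and 124 CPM in Maf LSEC-KO cluster 15, both with hepatocyte and cholangiocyte markers. It was at 11.4 CPM (2 UMIs in 1 of 29 cells) in the control T/NK cell-like cluster and at 10.2 CPM (3 UMIs in 2 of 60 cells) in that of Maf LSEC-KO. Inside the LSEC set, the highest Angpt1 level of an endothelial-like cluster was 1.17 CPM in control and 34.4 CPM in Maf LSEC-KO. Endothelial cells with a Vwf UMI held 0 Angpt1 UMIs in control and 17 (0.976 CPM) in Maf LSEC-KO.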

How the results depend on the processing

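With 1 library per genotype no test was possible, and a value is called moved where it left its own counting interval. Under every alternative run, Tek and Ptprb were lower in Maf LSEC-KO LSECs, Ptprb by more than 2-fold in each. No paired analysis was possible because each group has 1 library and the result comes from no test. No replicate could be left out for the same reason. Depth limits Angpt1 most, at 4 and 19 UMIs. Between the genotypes the log2 ratio for Tek, Tie1, Angpt2 and Ptprb, in that order, was -1.29, -0.16, 0.10 and -1.54 scaled by the UMIs of all genes. With median-of-ratios scaling it was -1.26, -0.13, 0.13 and -1.52, and with TMM -1.25 for Tek, -0.12 for Tie1 and -1.51 for Ptprb. As a mean over cells of CPM, Tek was -0.997, Angpt2 0.46 and Ptprb -1.21. With cells thinned to 2700 UMIs the 4 genes were -0.95, 0.082, 0.84 and -1.19. Without cells that had an Mki67 UMI, Tek was -1.01, Tie1 0.10 and Ptprb -1.22. With Vwf-positive cells kept, Tek was -0.99 and Ptprb -1.22. Ptprb was -1.37 without cells over 10% mitochondrial UMIs, and Angpt1 was 3.99 with cells chosen one by one in place of 1.96.

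Of the alternatives chosen after the data were seen, leaving out endothelial-like clusters led by markers of other cells gave -1.04 for Tek and -0.020 for Angpt2, the latter with its sign turned. Subtraction of the level in neutrophil or monocyte-like cells gave -0.88 for Tek, 0.21 for Tie1 and -1.33 for Ptprb. Ptprb was -1.34 without LSECs with 2 or more platelet markers and -1.44 without Maf LSEC-KO cells that held a Maf UMI.

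For cycling cells, the log2 ratios with 2 or more Mki67 UMIs, with 3 or more of 8 cycling markers and after thinning were -0.64, -0.76 and -0.63 for Tek and -0.75, -0.81 and -0.64 for Ptprb in control. In Maf LSEC-KO the first and second were -0.45 and -0.47 for Tek and -0.67 and -0.70 for Ptprb, and thinning gave -0.41 for Tie1, -0.71 for Angpt2 and -0.72 for Ptprb. For zonal cells, leaving out the thinning gave 0.56 for Tek and 0.15 for Ptprb in control and 0.092 for Ptprb in Maf LSEC-KO. With 3 or more of 6 pericentral markers against none, Ptprb in control was 0.14. When cells with no periportal marker were set against those with 2 or more, Tek in control was 0.041, and the sign turned for Tie1 (-0.12) and Ptprb (-0.21) in control and for Tek (-0.52) and Ptprb (-0.72) in Maf LSEC-KO. Most cells had 2 or more periportal markers, so this last split is not a zonal contrast of the same kind. The cause was not tested.

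Genes 2-fold higher and lower numbered 366 and 250 at 50 CPM or more and 5259 and 2526 without a filter, and at 1.5-fold they numbered 2012 and 936. These were 8.12% and 5.54%, 25.4% and 12.2%, and 21.6% and 10.1% of the genes measured. Over the 9 lists, 6 of 72 genes measured were higher and 9 lower. At 50 CPM or more 3 and 6 of 52 were higher and lower, without a filter 18 and 12 of 106, and at 1.5-fold 11 and 15 of 72.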
